A study of Mus musculus with 12 samples.

Results

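The genes described here are 10 mouse genes of eicosanoid synthesis, among them Tbxas1, the gene of thromboxane A synthase. They were taken as a fixed list (Tbxas1, Ptgs1, Ptgs2, Ptges, Hpgds, Alox5, Alox5ap, Ltc4s, Alox12 and Alox15). Each was measured by DNA methylation over its mm10 gene body and 5 kb outside each end, and all 10 could be measured, of 17323 protein-coding genes measured in this way in the whole series. A CpG was used where each of 12 libraries had at least 10 calls for it, both strands summed. This left 412 CpGs for the 10 genes, of 1052856 such CpGs in the genome. Tbxas1 was chosen by its methylation in these libraries, since a stretch of it had the largest gain of CD11b-positive over PBS. Its values in every comparison are therefore given as a description, without a test. The other 9 genes were chosen for their place in the pathway, with results of these data already known.

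Eicosanoids are lipid mediators made from arachidonic acid that phospholipases release from membranes. Cyclooxygenases turn it into prostaglandin H, which terminal synthases convert to prostaglandins or to thromboxane, the platelet-activating product of Tbxas1. Lipoxygenases instead lead to leukotrienes and hydroxy fatty acids, and both branches are known for their activity in platelets, mast cells, granulocytes and macrophages.

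Reduced representation bisulfite sequencing, which reads CpG methylation mainly in CpG-rich restriction fragments, had been applied to GFP-positive leukaemia cells that the labels call CMM and AML, grown in C57BL/6 mice after intravenous transfer. Treatment began once about 1% of blood cells were GFP-positive leukaemia cells and was given intravenously on alternate days, 3 times in all, and spleens were taken 1 day later. The CD11b-positive and CD11b-negative groups are the GFP-positive cells with and without CD11b, an integrin subunit of myeloid cells, from mice given CpG-STAT3dODN, in which CpG DNA, a ligand of the receptor TLR9, is linked to a decoy DNA that binds the transcription factor STAT3. The PBS group is GFP-positive cells of mice given PBS, not divided by CD11b. All 3 groups therefore share the leukaemia, the host strain and the GFP gate, and each holds 4 libraries. The labels do not say that libraries came from separate mice, so the p-values below measure only the spread between these libraries. Methylation data hold no RNA, so the labelled cell type could not be checked against expression of its markers.

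A CD11b-negative library stood apart before any of these genes was considered. Library 2 of that group had a mean methylation of 35.5% over the common CpGs, whereas the other 3 had 32.1% to 32.5%. The CD11b-positive libraries had 34.2% to 35.9% and the PBS libraries 31.0% to 31.7%. The share of calls in 9 Y-linked genes, per 1000000 autosomal calls, was 40.2 in that library and 8.64 to 12.9 in the other 3 CD11b-negative libraries. It was 23.8 to 41.3 in the CD11b-positive and 5.52 to 18.6 in the PBS libraries, so this share moved with the groups. CD11b-negative library 2 listed 6514505 CpGs, and the other 3 of its group 2955987 to 3809063. CD11b-positive libraries listed 3713833 to 6839563 (library 2 the most) and PBS libraries 2831927 to 3378484, so this number also moved with the groups. The libraries held 112671408 to 157223205 calls each, the fewest in CD11b-negative library 2. In methylation, Y share and listed CpGs, that library thus lay with CD11b-positive library 2, against its label. Whether its label or sort is right could not be checked here, and the cause was not tested. Every CD11b-negative mean depends on that library. For the main tiles and windows, the CD11b-negative mean is therefore also given without it, or each library's value is given.

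Methylation over the whole window of a gene differed from PBS in few of the genes. In CD11b-positive against PBS, 2 of the 9 genes other than Tbxas1 were called, Hpgds and Alox15, both higher. A call needed an adjusted p under 0.05 in a quasi-binomial test of the summed calls, with Benjamini-Hochberg adjustment over all gene windows of the genome, and a difference of at least 10 percentage points. In the genome 21.6% of gene windows passed that rule, 18.1% higher and 3.52% lower, so the count among these genes lies near the background. The windows of Ptges, Alox5, Ptgs2, Ltc4s and Alox12 were not called. They differed from PBS by 5.66, 7.45, -1.95, -1.13 and -1.30 points (adjusted p = 0.0515, 0.138, 0.209, 0.607 and 0.0225 in that test). In tiles of 1000 bp with at least 3 common CpGs, 8 of 26 tiles of the 9 genes were called (30.8%), 7 higher and 1 lower, against 36.3% of all tiles (32.5% higher and 3.76% lower). Of single CpGs, 23 of 271 were called (8.49%), 20 higher and 3 lower, against 16.7% of all common CpGs (13.3% higher and 3.48% lower). The median difference of the 9 genes was 1.43 points over tiles and 0.33 points over CpGs, while it was 5.0 points over all tiles and 0.34 points over all CpGs.

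Called CpGs were seldom those with values near 0% or 100% in all groups. Of the 271 CpGs, 139 had a mean over the 12 libraries under 20% and 77 a mean over 80%. Of those 139, 1 CpG was called (0.72%), against 2.07% of all common CpGs with a mean under 20%. None of the 77 was called, against 7.96% of all common CpGs with a mean over 80%. The other 55 CpGs had a median difference of 15.8 points and 22 of them were called (40.0%). The mean over 12 libraries includes the gain itself: of the 23 called CpGs, 7 had a PBS mean under 20% and 16 a PBS mean of 20% to 80%. All common CpGs of the genome with a 12-library mean of 20% to 80% had a median difference of 16.95 points, and 56.2% of them were called. The 55 CpGs lay in CpG-poor stretches, with a median of 11 listed CpGs within 250 bp to either side, against 25 for the CpGs under 20%.

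**Figure D1:**
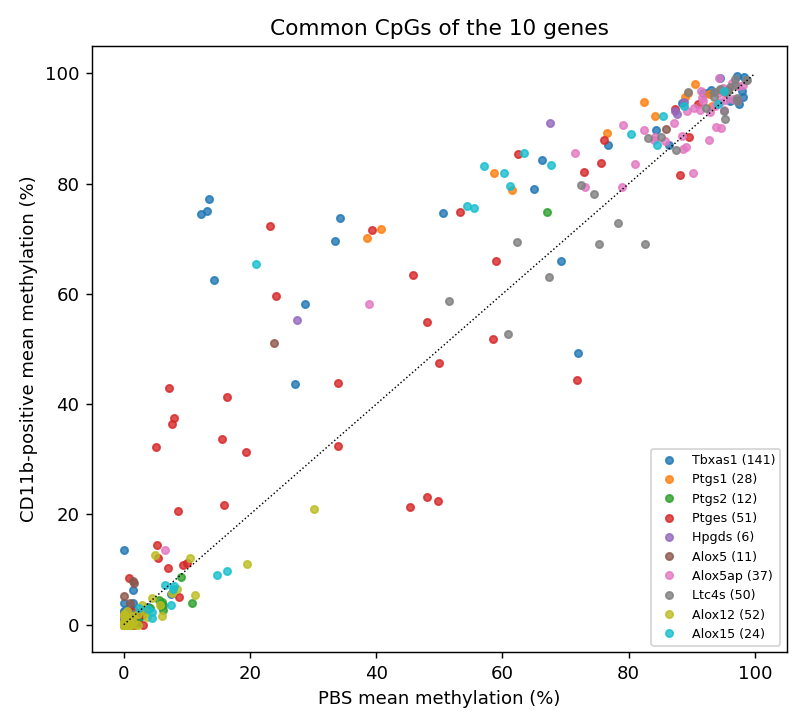
Mean methylation of each of the 412 common CpGs of the 10 genes in the CD11b-positive libraries (vertical axis, %) against the PBS libraries (horizontal axis, %), 4 libraries each. The number of CpGs of each gene is in the legend, and the dotted line marks equal values. Most CpGs near 0% or 100% in PBS libraries lie close to the line, but several of Ptges with PBS means of 5.07% to 7.93% lie far above it, and most other points far above it are of Tbxas1, Ptges, Ptgs1 and Alox15.

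Tbxas1 lies on chromosome 6 with a RefSeq gene body of 38864159 to 39084590. The start used by RefSeq for its promoter is at 38918986, 54.8 kb inside that body. Its promoter sequence, the 250 bases before that start (GRCm38.p6, chr6:38918736-38918985, plus strand), is shown because the stretch with the largest gain lies downstream of it. It holds 4 CG, written in lower case since none had 10 calls in all libraries.
Tbxas1: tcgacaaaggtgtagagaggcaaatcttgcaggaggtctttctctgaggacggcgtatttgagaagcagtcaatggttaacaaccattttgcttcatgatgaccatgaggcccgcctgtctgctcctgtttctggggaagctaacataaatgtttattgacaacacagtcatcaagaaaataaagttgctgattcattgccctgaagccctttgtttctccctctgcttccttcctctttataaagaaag

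Of the 141 common CpGs of the Tbxas1 window, 113 lay in 3 tiles at the start of Hipk2, a kinase gene that overlaps it. That CpG island was unmethylated in all groups, with means of 0.93% in CD11b-positive, 0.77% in CD11b-negative and 0.78% in PBS libraries. Because of it the value of the whole window was low and showed little, at 15.7% ± 1.41 in CD11b-positive, 11.8% ± 3.49 in CD11b-negative (10.4% without library 2) and 13.2% ± 1.42 in PBS libraries (SD, n = 4 each). The other 28 CpGs, with a median of 7 listed CpGs within 250 bp to either side, averaged 79.2% ± 3.80 in CD11b-positive, 70.1% ± 9.62 in CD11b-negative and 64.1% ± 1.47 in PBS libraries. All 4 CD11b-positive libraries (75.1% to 83.2%) were above all 4 PBS libraries (62.5% to 65.9%). CD11b-negative library 2 had 84.3%, and the other 3 had 62.8% to 67.2%.

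The tile with the largest difference in Tbxas1, chromosome 6, 38921001 to 38922000, lies 2.52 kb downstream of the RefSeq start and holds 3 CpGs with 480 to 968 calls per library. Methylation in CD11b-positive libraries 1 to 4 was 82.5%, 90.2%, 64.3% and 65.4%. In CD11b-negative libraries it was 32.5%, 90.2%, 23.5% and 20.1%, and in PBS libraries 6.47%, 18.7%, 13.8% and 13.0%. Every CD11b-positive library was far above every PBS library, and CD11b-negative library 2 equalled the highest CD11b-positive library. The other 3 CD11b-negative libraries lay below every CD11b-positive library and above the highest PBS library. The mean was 75.6% ± 12.8 in CD11b-positive, 41.6% ± 32.8 in CD11b-negative (25.4% ± 6.40 without library 2, n = 3) and 13.0% ± 5.03 in PBS libraries. The gain of 62.6 points over PBS ranked 1 of 87020 tiles, which is how the gene was chosen.

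The 3 CpGs of that tile, at 38921905, 38921924 and 38921926, had like values. At the first, CD11b-positive libraries had 65.1% to 94.2%, and CD11b-negative libraries 20.2%, 24.5%, 33.8% and, in library 2, 91.9%. PBS libraries had 6.47% to 18.9%. They span 22 bases, so single reads can cover all of them and they are not independent measurements.

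Further tiles of Tbxas1 were also higher in CD11b-positive libraries. At 38910001 to 38911000, which lies 8.49 kb upstream of the start and holds 4 CpGs, CD11b-positive libraries had 80.6%, 83.5%, 58.7% and 63.2%. CD11b-negative libraries had 32.0%, 86.6%, 42.3% and 29.3%, and PBS libraries 34.2%, 42.1%, 33.7% and 37.6%. Here CD11b-positive libraries again lay above PBS, whereas CD11b-negative libraries other than library 2 lay within or near the PBS range. At 38970001 to 38971000, with 2 CpGs, the means were 50.9% ± 15.1 in CD11b-positive, 34.95% ± 31.4 in CD11b-negative and 27.9% ± 7.26 in PBS libraries. Without library 2 the CD11b-negative mean was 19.7% ± 8.73, below PBS instead of above it. The single CpG of the tile at 38986001 had 74.7% ± 4.75 in CD11b-positive, 62.8% ± 14.998 in CD11b-negative (55.9% without library 2) and 50.6% ± 7.10 in PBS libraries. Nearer the 3' end, the tiles at 39035001 and 39045001 were methylated to between 87.5% and 100% in all 12 libraries. In the opposite direction, the 2 CpGs of the tile at 38882001 had 25.4% ± 7.47 in CD11b-positive, 31.6% ± 10.5 in CD11b-negative (36.8% without library 2) and 37.2% ± 3.68 in PBS libraries, with 14.98% and 16.0% in library 2 of the CD11b-positive and CD11b-negative groups.

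**Figure D2:**
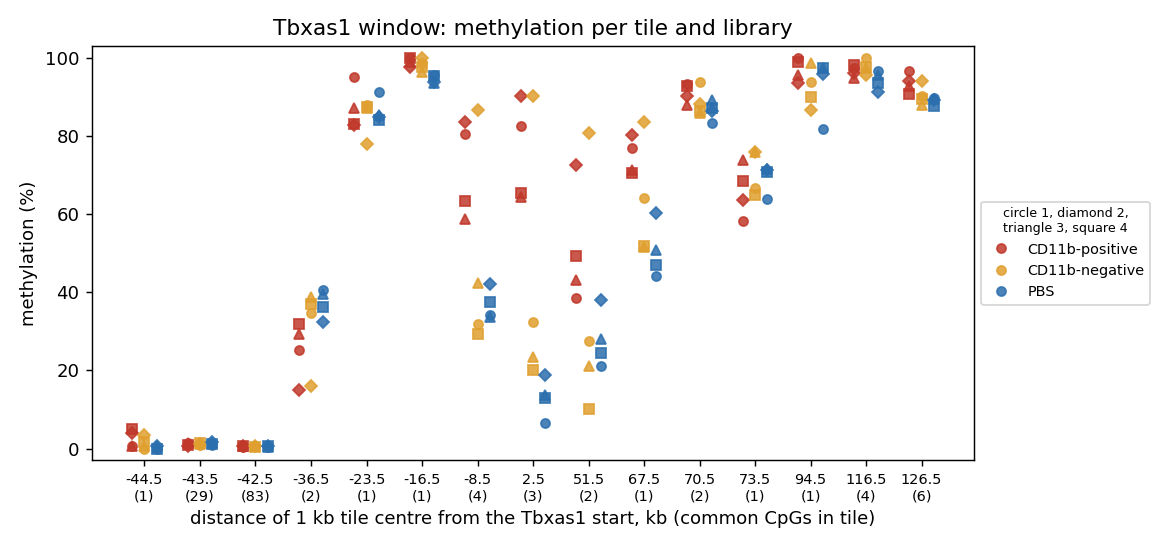
Methylation (%, vertical axis) of each 1 kb tile of the Tbxas1 window in each library, with tiles ordered by the distance of their centre from the RefSeq start (kb, horizontal axis, evenly spaced and not to scale) and the number of common CpGs in brackets. Red, yellow and blue symbols are CD11b-positive, CD11b-negative and PBS libraries, and the symbol shape gives the library number. At 2.5 kb the CD11b-positive libraries lie between 64.3% and 90.2% and the PBS libraries between 6.47% and 18.7%. The yellow diamond, CD11b-negative library 2, lies with the red symbols there and in the tiles centred at -8.5 kb, 51.5 kb and 67.5 kb.

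Over the 12 libraries, the tiles in other coding genes whose methylation followed the Tbxas1 tile most closely lay in Grip1 (Pearson r = 0.996), Trim10 (0.996), Plekhh1 (0.995), Trpm4 (0.995) and Gabbr2 (0.994). Of all 87020 tiles, 31.7% had r above 0.9, and these values share the libraries and their group difference, so they are descriptions only. In the Trim10 tile, methylation was 62.0% in CD11b-positive, 42.9% in CD11b-negative and 25.2% in PBS libraries, and CD11b-negative library 2 had 69.3%.

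The cyclooxygenases act before the terminal synthases. Ptgs1 encodes the constitutive enzyme, which supplies thromboxane synthase in platelets, and Ptgs2 the inducible one. In Ptgs1 the 15 CpGs within 1 kb of the start were nearly unmethylated, with 0.39% ± 0.36 in CD11b-positive, 1.04% ± 0.35 in CD11b-negative and 0.65% ± 0.13 in PBS libraries. The difference lay inside the gene, in the tile of 3 CpGs at chromosome 2, 36243001 to 36244000, which lies 13.1 kb downstream of the start. CD11b-positive libraries had 73.6%, 84.2%, 73.4% and 78.6%, CD11b-negative libraries 60.2%, 91.8%, 52.5% and 47.1%, and PBS libraries 46.3%, 58.2%, 44.7% and 58.9%. CD11b-positive libraries did not overlap PBS libraries, and the tile rose by 25.4 points over PBS (adjusted p = 0.00634). Such non-overlap was seen in 13 of the 26 tiles of the 9 genes, 10 higher and 3 lower, against 56.2% of all tiles, 50.3% higher and 5.88% lower. A further 2 called CpGs of Ptgs1, at 36248925 and 36248960, rose by 17.4 and 23.3 points. The tile at 36242001 had 95.6% in CD11b-positive and 89.4% in PBS libraries, under the 10 points required. The whole Ptgs1 window was not called, with a difference of 1.92 points (adjusted p = 0.540). It had 38.7% in CD11b-positive, 29.3% in CD11b-negative (24.8% without library 2) and 36.7% in PBS libraries.

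Ptgs2 had 12 common CpGs, all outside the gene body, and 11 of them lay within 0.39 kb before its start. Its promoter (GRCm38.p6, chr1:150099781-150100030, plus strand, 250 bases up to the start) is shown because 5 of its 13 CG, in capitals, were measured in all libraries. They are the ones farthest from the start, and the CG in lower case lacked 10 calls in at least 1 library.
Ptgs2: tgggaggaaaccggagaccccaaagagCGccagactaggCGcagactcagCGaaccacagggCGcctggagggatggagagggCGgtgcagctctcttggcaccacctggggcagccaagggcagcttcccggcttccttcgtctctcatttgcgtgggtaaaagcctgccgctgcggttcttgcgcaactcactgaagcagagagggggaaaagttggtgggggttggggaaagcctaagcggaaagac

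Over these 5 CpGs, with at least 854 calls per library, CD11b-positive libraries had 3.98%, 1.64%, 2.17% and 3.98%, CD11b-negative libraries 5.08%, 1.76%, 6.01% and 4.47%, and PBS libraries 5.15%, 5.14%, 5.27% and 4.77%. Every CD11b-positive library was below every PBS library, and CD11b-negative library 2 was again close to CD11b-positive library 2. The tile of 11 CpGs, chromosome 1, 150099001 to 150100000, had 3.06% ± 0.53 in CD11b-positive, 4.28% ± 1.44 in CD11b-negative (4.99% without library 2) and 5.27% ± 0.32 in PBS libraries. Its difference from PBS of -2.22 points had an adjusted p of 0.00102 but was too small for a call. The Ptgs2 promoter was thus nearly unmethylated in all groups.

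Ptges encodes the microsomal prostaglandin E synthase that acts after Ptgs2, and it held 15 of the 23 called CpGs of the 9 genes. In CD11b-positive libraries 12 of its 51 CpGs were higher than in PBS and 3 were lower. Of these 3, the CpG at 30927197 was called in only 2 of 13 alternatives. Its largest difference lay 17.2 kb upstream of the start, in the tile of 3 CpGs at chromosome 2, 30920001 to 30921000, still within the RefSeq gene body of 30889471 to 30931020. CD11b-positive libraries had 36.1%, 53.6%, 25.3% and 34.3%, CD11b-negative libraries 15.3%, 57.0%, 14.9% and 7.34%, and PBS libraries 2.11%, 13.97%, 4.06% and 6.17%. All CD11b-positive libraries lay above all PBS libraries, and library 2 was the highest in each group. The tile rose by 30.7 points over PBS (adjusted p = 0.00334).

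The tile at 30899001 to 30900000, 3.80 kb into the gene, had 78.8%, 86.4%, 63.5% and 56.2% in CD11b-positive libraries. CD11b-negative libraries had 43.6%, 83.4%, 43.3% and 40.4%, and PBS libraries 36.0%, 49.0%, 39.4% and 42.6%. CD11b-positive libraries and CD11b-negative library 2 were high, and the remaining CD11b-negative libraries lay within the PBS range. The tile rose by 29.5 points (adjusted p = 0.00824), and the CpG at 30899952 by 49.2 points, the largest difference of a CpG in the 9 genes. In the tile at 30927001 to 30928000, CD11b-positive libraries had 59.8%, 41.8%, 56.0% and 58.1%, CD11b-negative libraries 61.7%, 60.1%, 62.6% and 64.8%, and PBS libraries 62.8%, 70.7%, 68.0% and 63.8%. This tile fell by 12.4 points against PBS (adjusted p = 0.0433), the only loss called among the 26 tiles. Leaving out any of the 4 PBS libraries, or CD11b-positive library 2 or 3, ended that call, with adjusted p up to 0.110 over all alternatives other than the fit with the Y share.

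Around the Ptges start, neighbouring CpGs differed in opposite directions. The promoter (GRCm38.p6, chr2:30903298-30903547, minus strand, 250 bases up to the start) is shown with its 5 measured CG in capitals, all in the part nearest to the start.
Ptges: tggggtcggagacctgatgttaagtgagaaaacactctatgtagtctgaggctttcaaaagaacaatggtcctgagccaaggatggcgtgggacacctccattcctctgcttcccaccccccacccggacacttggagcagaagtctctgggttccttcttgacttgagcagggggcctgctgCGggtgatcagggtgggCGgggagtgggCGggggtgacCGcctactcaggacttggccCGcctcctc

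Over these 5 CpGs, CD11b-positive libraries had 9.83%, 18.8%, 8.02% and 8.97%, CD11b-negative libraries 10.3%, 17.1%, 8.59% and 7.67%, and PBS libraries 8.09%, 8.83%, 6.34% and 7.78%. The groups overlapped, with library 2 of both CD11b groups highest. Within the gene, the CpGs 168 and 166 bp after the start (30903129 and 30903131) had 23.1% ± 10.5 and 21.3% ± 7.53 in CD11b-positive, 42.4% and 35.4% in CD11b-negative (49.1% and 40.8% without library 2), and 48.0% ± 4.45 and 45.4% ± 4.44 in PBS libraries. These fell by 24.9 and 24.1 points against PBS (adjusted p = 0.0157 and 0.0130). In both, the 4 CD11b-positive libraries lay below the 4 PBS libraries, and CD11b-negative library 2, with 22.2% and 19.05%, was the lowest of its group. These calls were not firm: without PBS library 1 neither CpG was called (adjusted p = 0.0521 and 0.0522), and the CpG at 30903129 was not called without PBS library 3 or with all 12 libraries in a single fit. Over 13 alternatives the CpG at 30903129 was called in 9 and that at 30903131 in 11.

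Only 277 bp farther into the gene, the next called CpG differed the other way. The CpGs 445, 472, 541 and 546 bp after the start rose in CD11b-positive libraries by 18.1, 24.8, 23.0 and 32.3 points over PBS (adjusted p = 0.0379, 0.0145, 0.00918 and 0.0104). They were called in 4, 9, 11 and 11 of the 13 alternatives, and leaving out PBS library 1 or 3 ended the calls at 445 and 472 bp. The CpG at 546 bp had 79.4%, 85.9%, 64.3% and 56.7% in CD11b-positive libraries, 52.9%, 87.0%, 27.7% and 32.6% in CD11b-negative libraries, and 39.8%, 53.8%, 34.5% and 29.0% in PBS libraries. The tile that holds these 4 CpGs, 30902001 to 30903000 with 12 CpGs, had 53.1% ± 5.70 in CD11b-positive, 47.3% ± 9.51 in CD11b-negative (42.6% without library 2) and 39.7% ± 4.24 in PBS libraries, a rise of 13.5 points over PBS (adjusted p = 0.00761). The adjoining tile over the start, 30903001 to 30904000, had 12.8% in CD11b-positive and 15.5% in both CD11b-negative (also without library 2) and PBS libraries and was not called.

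**Figure D3:**
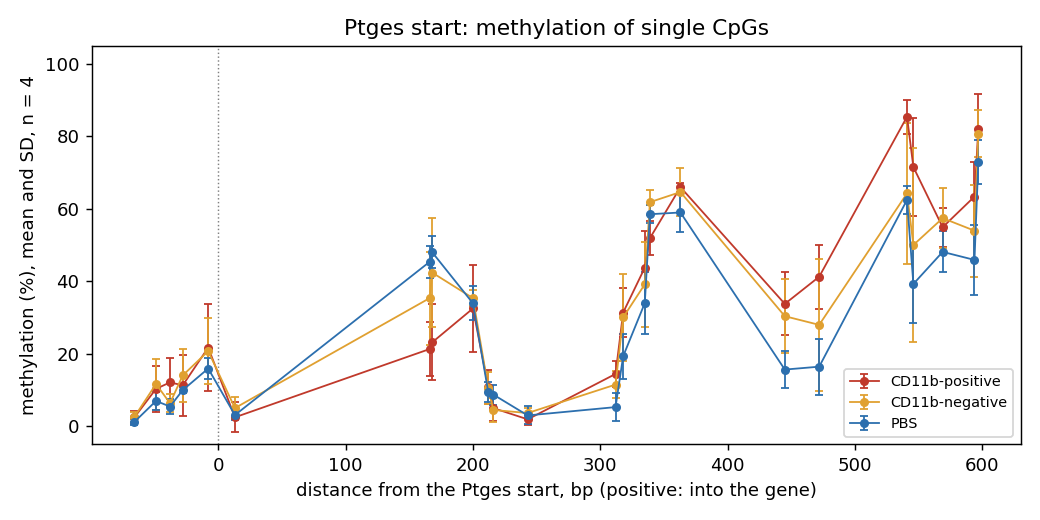
Methylation of single CpGs (%, mean and SD of 4 libraries) within 1 kb of the Ptges start against the distance from that start in bp, with the CD11b-positive libraries in red, CD11b-negative in yellow and PBS in blue. Lines join CpGs of a group and are no measurement between them. The red points lie below the blue ones at 166 and 168 bp and above them at 445 to 546 bp.

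Hpgds, the prostaglandin D synthase of haematopoietic cells, was measured by 6 CpGs, all in the tile at chromosome 6, 65122001 to 65123000. This tile lies 22.2 kb downstream of the start and had as few as 60 calls in a library. Its single CpGs had 10 to 47 calls per library, and 10 was the minimum required. In every CD11b-positive library, weighting the CpGs equally gave the same value as summing their calls. Single reads may therefore cover all 6 CpGs, which would then not be independent measurements. The Hpgds window was not measured at the higher coverage minimum among the alternatives. CD11b-positive libraries had 83.3%, 94.7%, 84.6% and 85.4%, CD11b-negative libraries 67.0%, 90.4%, 75.0% and 70.4%, and PBS libraries 79.2%, 76.9%, 75.2% and 73.0%. CD11b-positive libraries were all above PBS libraries, and CD11b-negative libraries without library 2 were near or below them. The rise over PBS was 10.9 points, with an adjusted p of 0.0210 over gene windows and 0.00963 over tiles. Without PBS library 4 or without CD11b-positive library 2 neither call was made. None of the 6 CpGs was called by itself.

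Among the lipoxygenases, Alox15, which in mouse makes mainly 12-hydroxy products of arachidonic acid, was the gene with called differences in tiles. At chromosome 11, 70356001 to 70357000, with 3 CpGs and at least 842 calls per library, CD11b-positive libraries had 85.7%, 92.5%, 81.9% and 83.4%. CD11b-negative libraries had 76.4%, 91.4%, 73.9% and 76.0%, and PBS libraries 69.6%, 74.3%, 70.3% and 70.4%. The CD11b-positive libraries and CD11b-negative library 2 were above all others, and the tile rose by 14.7 points over PBS (adjusted p = 0.00298). The tile at 70363001 to 70364000, with 6 CpGs, had 87.5% ± 5.66 in CD11b-positive, 82.2% ± 3.97 in CD11b-negative (80.3% without library 2) and 74.0% ± 4.41 in PBS libraries, a rise of 13.5 points over PBS (adjusted p = 0.00558). The whole window had 53.0% ± 4.25 in CD11b-positive, 46.5% ± 4.28 in CD11b-negative (44.7% without library 2) and 42.2% ± 1.73 in PBS libraries and rose by 10.8 points over PBS (adjusted p = 0.00610). Without CD11b-positive library 1 or 2 the window was no longer called.

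The largest CpG difference of Alox15 lay outside its body, 3.38 kb beyond the lower end at chromosome 11, 70340763, and was picked out after its values were seen. CD11b-positive libraries had 71.5%, 86.7%, 55.5% and 48.1%, CD11b-negative libraries 32.7%, 87.8%, 24.9% and 22.2%, and PBS libraries 12.8%, 29.0%, 20.9% and 21.3%. The order of libraries was like that in the Tbxas1 tile, with library 2 the highest of each group. It rose by 44.5 points over PBS (adjusted p = 0.00102).

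Alox5, which starts leukotriene synthesis, and Alox12, the platelet 12-lipoxygenase, had 9 of 11 and 12 of 52 CpGs within 1 kb of their starts, where methylation was low. The tile over the Alox5 start, chromosome 6, 116461001 to 116462000, had 6.33%, 2.85%, 3.70% and 1.59% in CD11b-positive, 0.95%, 3.70%, 1.04% and 1.97% in CD11b-negative, and 1.11%, 1.69%, 0.34% and 0.82% in PBS libraries. The groups overlapped, and the difference of 2.63 points was too small for a call. A single CpG inside Alox5, at 116430273, had 48.2%, 62.4%, 47.3% and 46.3% in CD11b-positive, 36.5%, 52.5%, 27.3% and 29.1% in CD11b-negative, and 21.0%, 21.7%, 25.7% and 26.8% in PBS libraries. There all CD11b-positive and all CD11b-negative libraries were above the PBS libraries, and the rise in CD11b-positive was 27.3 points over PBS (adjusted p = 0.00188). The tile over the Alox12 start, chromosome 11, 70255001 to 70256000, had 3.63% ± 1.15 in CD11b-positive, 6.19% ± 2.25 in CD11b-negative (7.20% without library 2) and 5.88% ± 0.25 in PBS libraries, a difference of -2.25 points from PBS that was too small for a call. Of the 52 CpGs of the Alox12 window, 36 lay within 1 kb of the neighbouring gene 0610010K14Rik, with means of 0.41% in CD11b-positive, 0.65% in CD11b-negative and 0.52% in PBS libraries.

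Alox5ap, whose product presents arachidonic acid to Alox5, and Ltc4s, leukotriene C synthase, had no called tile or CpG. The 37 CpGs of Alox5ap were methylated for the most part, with 89.1% ± 2.53 in CD11b-positive, 89.4% ± 0.80 in CD11b-negative (also 89.4% without library 2) and 87.2% ± 1.29 in PBS libraries. An exception was the CpG at 149286164, with 13.5% in CD11b-positive, 11.5% in CD11b-negative (9.33% without library 2) and 6.51% in PBS libraries. Its most different tile, chromosome 5, 149287001 to 149288000, had 87.5% ± 1.86 in CD11b-positive, 86.7% ± 2.26 in CD11b-negative (85.9% without library 2) and 83.5% ± 2.64 in PBS libraries. In Ltc4s, the tiles at 50236001 and 50237001 on chromosome 11 lie over the gene and had means of 0.30% to 0.53% in all 3 groups. The 28 methylated CpGs of its window lie in the neighbouring gene Mgat4b. The most different tile, 50234001 to 50235000, is among these and had 93.7% ± 0.80 in CD11b-positive, 91.7% ± 2.61 in CD11b-negative (90.5% without library 2) and 91.2% ± 0.55 in PBS libraries.

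**Figure D4:**
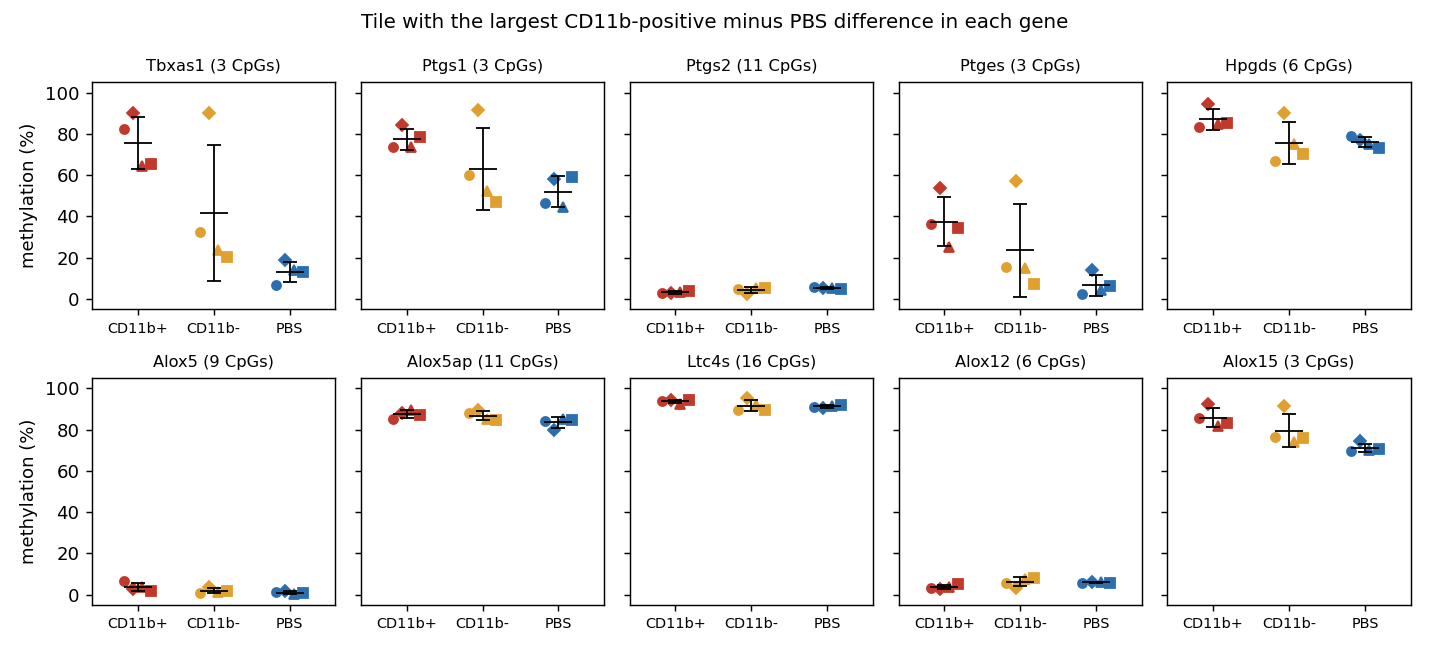
Methylation (%, vertical axis) of the tile with the largest absolute CD11b-positive minus PBS difference in each of the 10 genes, by library. Symbol shape gives the library number (circle 1, diamond 2, triangle 3, square 4), and bars show the mean and SD of 4 libraries. Tbxas1, Ptgs1, Ptges, Hpgds and Alox15 show CD11b-positive libraries above PBS with the CD11b-negative diamond above the lowest CD11b-positive library, while Ptgs2, Alox5 and Alox12 stay below 10% and Alox5ap and Ltc4s lie at 79.6% or more in every library.

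RefSeq gave a start for 7 of the 9 genes, and 71 CpGs lay within 1 kb of it. Of these, 4 were called higher and 2 lower, all of them in Ptges, while 5.97% of all common CpGs within 1 kb of a start were called. Of the other 139 CpGs of the 7 genes, 13 were higher and 1 was lower, against 24.2% of all common CpGs farther from starts. The starts of Ptgs1, Ptgs2, Alox5 and Alox12 held 47 of the 71 CpGs, with means of 0.39% to 5.44% in CD11b-positive, 1.04% to 7.08% in CD11b-negative and 0.65% to 6.66% in PBS libraries.

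No difference was called between CD11b-negative and PBS libraries in any of the 9 genes, by the quasi-binomial test with or without library 2, or by edgeR over windows and tiles. Genome-wide 0% of gene windows, tiles and CpGs passed with all 4 libraries. At an unadjusted p under 0.05 there were 1 of 9 windows, 2 of 26 tiles and 14 of 271 CpGs, against 5.17%, 9.92% and 5.07% in the genome. Without library 2 these counts were 2, 4 and 15. The genome shares at that p were not counted without library 2, so this rise cannot be set against them. The median difference from PBS was 0.76 points over the 26 tiles, against 2.53 points over all tiles. No tile of the 9 genes separated the 2 groups, against 10.6% of all tiles. The Tbxas1 tile at 38921001 did narrowly, with 20.1% as the lowest CD11b-negative and 18.7% as the highest PBS value. Its group means differed by 28.6 points, or by 12.4 points without library 2. This tile was chosen for its gain over PBS, so these values are descriptions.

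Between CD11b-positive and CD11b-negative libraries, the main test did not pair libraries by number. With all 4 libraries in each group, it called none of the windows, tiles or CpGs of the 9 genes, nor any in the genome. At an unadjusted p under 0.05 there were 1 of 9 windows, 3 of 26 tiles and 12 of 271 CpGs, against 20.5%, 10.9% and 6.87% in the genome. Without CD11b-negative library 2, 5 of the 26 tiles were called (19.2%), against 20.4% of all tiles. All were higher in CD11b-positive libraries: 1 tile each in Ptgs1, Hpgds and Alox15, by 24.2, 16.2 and 10.4 points, and in Ptges those at 30899001 and 30920001, by 28.8 and 24.8 points (adjusted p = 0.0204 to 0.0463). Of the 9 windows, that of Hpgds was then called as well, with 16.2 points (adjusted p = 0.0398), against 19.1% of all windows. Of CpGs, 10 were then called, all higher, against 7.32% of all CpGs. With the library number as a block, 2 tiles and 7 CpGs were called, the CpGs 6 higher and 1 lower, against 6.77% of all CpGs. These tiles were Ptges 30899001 (adjusted p = 0.0300) and Hpgds 65122001 (adjusted p = 0.0283), against 13.6% of all tiles called. In the Tbxas1 tile, the CD11b-positive mean was 34.0 points above that of CD11b-negative libraries, and 50.2 points above it without library 2. As the tile was chosen for its CD11b-positive and PBS values, this too is a description.

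The same libraries were high at nearly every gain. In each of 8 tiles, the 7 called higher and the leading Tbxas1 tile, CD11b-positive library 2 was the highest of its group and CD11b-negative library 2 the highest of its own. In all 8, CD11b-negative library 2 had a value at or above the lowest CD11b-positive library. Of the 20 CpGs called higher in the 9 genes, CD11b-negative library 2 exceeded the other 3 CD11b-negative libraries at 19. These tiles and CpGs were taken for their gain in CD11b-positive libraries. The share of all gained tiles or CpGs with this order was not counted, so these counts are descriptions. Over all common CpGs, library 2 also had the highest mean of the CD11b-positive (35.9%) and CD11b-negative groups (35.5%). Lists of marker genes of other cell types moved with CD11b-negative library 2. Mean methylation over 9 of 10 listed platelet and megakaryocyte genes was 30.8% to 37.7% in CD11b-positive libraries, 38.7% in CD11b-negative library 2 and 24.1% to 28.7% in the other CD11b-negative libraries, and 23.2% to 25.4% in PBS libraries. Monocyte and macrophage genes (5 of 6 listed) had 66.5% to 78.1% in CD11b-positive libraries, 79.6% in CD11b-negative library 2, 56.6% to 56.9% in the other CD11b-negative and 53.1% to 59.5% in PBS libraries. In the lists of T cell, B cell and erythroid genes too, CD11b-negative library 2 was the highest of its group. CD11b-positive means were above PBS means in these lists as well, with 47.1% against 35.3%, 45.1% against 36.7% and 47.5% against 39.3%. The difference was thus not particular to the platelet and monocyte lists. The part of cell composition in the results was not tested. With the share of calls in Y-linked genes as a term, none of the calls in the 9 genes was made in CD11b-positive against PBS. In the genome no gene window, 116 tiles and 1101 CpGs were then called. Every CD11b-positive library had a larger Y share (23.8 to 41.3) than every PBS library (5.52 to 18.6). This fit therefore could not separate the share from the group, and no conclusion is drawn from the lost calls.

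In the wider pathway, as in the genome, most calls were higher. Of 48 names listed for phospholipases, other enzymes, receptors and carriers, 40 genes were measured. In CD11b-positive against PBS, 13 gene windows were called, all higher (32.5%). Of all windows 21.6% were called, 18.1% higher and 3.52% lower. The counts by class that follow are small and are to be read beside these shares. Among the 6 measured phospholipases, 3 rose. Pla2g2d, a secreted phospholipase, had 62.6% ± 8.0 in CD11b-positive and 40.7% ± 6.61 in PBS libraries (adjusted p = 0.00615), and Pla2g4b and Pla2g5 rose by 17.3 and 17.5 points. Of 21 other enzymes 6 rose. Hpgd, which inactivates prostaglandins, had 33.5% ± 8.34 in CD11b-positive and 16.7% ± 1.51 in PBS libraries (adjusted p = 0.0178). The others were Ptgr1, Alox12e, Ephx2 and the leukotriene-processing peptidases Ggt5 and Dpep1, with gains of 11.3 to 18.6 points.

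Of 10 receptors, 3 rose, namely the prostaglandin E receptor Ptger1 by 11.4 points, the prostacyclin receptor Ptgir by 13.6 points and the leukotriene receptor Cysltr2 by 16.2 points. Of 3 carriers the prostaglandin transporter Slco2a1 rose, with 52.1% ± 4.25 in CD11b-positive and 36.1% ± 4.44 in PBS libraries (adjusted p = 0.00256). No pathway window was called lower. Between CD11b-negative and PBS libraries, and between CD11b-positive and CD11b-negative libraries, no pathway window or tile was called, nor any in the genome. In all the called pathway windows except Ephx2, CD11b-negative library 2 was the highest of its group. Ephx2 had 61.2%, 46.9%, 41.3% and 51.6% in CD11b-negative libraries. In tiles of these genes, 60 of 156 were called higher and 5 lower in CD11b-positive against PBS (41.7%). Of all tiles 36.3% were called, 32.5% higher and 3.76% lower.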

How the data were processed

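Libraries of 3 groups of 4 were compared. The authors' deposited files hold counts: methylated and unmethylated reads per CpG cytosine and strand, not normalized. Per the submitters' processing notes, the build was mm10 and the tools were methylKit 1.20.0 and Bismark, besides cutadapt 2.7 and Trim Galore 0.6.4. Whether duplicates were removed, and the conversion rate, is not given in the sources used here. Reads without molecular identifiers are not independent molecules, so precision covers counting error only. Libraries held 112671408 to 157223205 calls, with a median of 84 calls per common CpG and library.

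Strands were summed, and CpGs with at least 10 calls in all 12 libraries were kept. Positions were set against RefSeq GRCm38.p6 tables of the same build, which give gene bodies and starts but no exons. All 342525 CpGs that could be checked against RefSeq promoter sequences lay on a CG. Methylation in percent was computed from the deposited counts as methylated calls over all calls, summed over a window, a tile of 1000 bp or a CpG. Windows and tiles needed at least 3 CpGs. A quasi-binomial logistic model of each pair of groups was fitted to every feature of the genome, with dispersions of at least 1 moderated as in limma within classes of mean methylation bounded at 5, 20, 80 and 95%. P-values were adjusted by the Benjamini-Hochberg method over all features of a level. The code was tested on simulated data. Analyses used Python 3.11.15, numpy 2.4.6, scipy 1.17.1, pandas 2.3.3, R 4.3.3, edgeR 4.0.16 and limma 3.58.1.

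The members and lists were chosen with earlier results of these data known. All 10 genes are named, each with its window, its tile with the largest absolute CD11b-positive minus PBS difference and every called tile. Pathway genes are named where their window was called, and 5 tiles of other genes by their correlation with the leading Tbxas1 tile. Of the 48 pathway names 46 were in the gene table, and Fam213b is an older name of Prxl2b. RefSeq promoter sequences matched 8 of the 10 genes. Replicate numbers were shared by the groups. Deviations from group means over tiles correlated between same-numbered CD11b-positive and CD11b-negative libraries (r = 0.159, 0.926, 0.654 and 0.682). As all were over 0.1, the numbers were read as a possible pairing of these libraries, from the data and not from the labels. The main test did not use that pairing, which entered only as the block among the alternatives. Only number 2 correlated best with its own number, so the pairing is a weak one: for CD11b-positive 1, 3 and 4 the best r was 0.211, 0.664 and 0.690 with another number. Alternatives were another tool, a replicate block, the Y share as a term, other coverage, size and difference limits, no flank, equal weights of CpGs, all libraries in a single fit, and leaving out each library.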

Additional observations from a re-analysis of the deposited data

Results flagged for a closer look

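Of 72 sets of 4 libraries of a group (10 windows and 14 tiles in 3 groups), 7 held a library far from the other 3 by Dixon's test at the 95% level. Chance gives about 1 in 20 for independent sets. These tiles were picked for their differences and overlap the windows, so the count cannot be set against that rate and is a description. The sets of Tbxas1 were included, but none of them was among the 7. Of the 7, 4 were CD11b-negative library 2. It had 91.4% in the Alox15 tile at 70356001, where the other 3 had 73.9% to 76.4%. In Ptges it had 83.4% at 30899001 (others 40.4% to 43.6%), 61.3% at 30902001 (others 41.2% to 44.6%) and 57.0% at 30920001 (others 7.34% to 15.3%).

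The remaining 3 were also libraries numbered 2. CD11b-positive library 2 had 61.6% in the Ptges tile at 30902001, where the other 3 had 50.1% to 50.4%. PBS library 2 had 80.6% in the Alox15 tile at 70363001 (others 71.4% to 72.4%) and 79.6% in the Alox5ap tile at 149287001 (others 84.4% to 85.4%).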

How the results depend on the processing

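In CD11b-positive against PBS, 2 windows, 8 tiles and 23 CpGs of the 9 genes were called. With the Y share as a term 0 windows, 0 tiles and 0 CpGs were called, and this setting alone ended all 10 calls of named windows and tiles. That share was larger in every CD11b-positive than in every PBS library, so this fit could not separate it from the group. Windows numbered 1 of 9 with all 12 libraries in a single fit (15.2% of all windows) and with each CpG counted equally in limma (18.8%). They numbered 1 of 8 with a coverage minimum of 20 (21.4%) and with no flank (22.2%). Tiles numbered 15 of 26 with no difference required, against 59.7% of all tiles. They numbered 5 of 22 with a coverage minimum of 20 (35.6%) and 14 of 40 with a minimum of 1 CpG (43.6%). CpGs numbered 10 of 271 with all 12 libraries in a single fit, against 7.31% of all CpGs. Leaving out 1 library gave 0 to 2 windows (16.8% to 23% of all windows), 6 to 8 tiles (31.3% to 36.9% of all tiles) and 12 to 24 CpGs (11.4% to 16.4% of all CpGs). Without PBS 1 there were 12 CpGs, all higher, since all 3 Ptges losses ended there, and without PBS 3 there were 13. Without CD11b-positive 2 there were 0 windows. The Hpgds window and tile were not called with all 12 libraries in a single fit. The Alox15 window lost its call under equal weights and with no flank, where its difference was under 10 points. The Ptges loss at 30927001 was not called by edgeR or with the replicate block. Between CD11b-positive and CD11b-negative, the replicate block gave 2 tiles and 7 CpGs, against 0 and 0 without it, and leaving out 1 library gave 0 to 1 windows, 0 to 5 tiles and 0 to 10 CpGs, all calls being without CD11b-negative 2. The block changed no other call of a named window or tile. Against PBS, same-numbered libraries correlated with r from -0.099 to 0.730 for CD11b-positive and -0.131 to 0.772 for CD11b-negative, so there the numbers were not taken as pairs. CD11b-negative against PBS gave 0 calls in the 9 genes under every setting run. No difference of a named window or tile in CD11b-positive against PBS that was called changed sign. Windows and tiles with few CpGs and calls, such as Hpgds with 60 calls in a library, limit what could be detected. The cause of these changes was not tested.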
